A study of Mus musculus with 24 samples.

Results

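Bone marrow macrophages of LysM-Cre;Rosa26-Runx1tg/+ mice were compared after 5 days and after 3 days of culture with RANKL, in 3 libraries per day, which are 6 of the 24 libraries of the study. The members were all libraries of that genotype and treatment, and 15035 of the 54532 genes in the deposited table passed a filter on low counts and were tested. These mice carry a Runx1 transgene at the Rosa26 locus together with Cre recombinase driven from the lysozyme gene Lyz2, which is active in macrophages, their precursors and neutrophils, and the labels give the genotype as Runx1 over expression. Cells were seeded at 15000 per well in 30 ng/mL M-CSF, the growth factor that keeps macrophages alive, and 50 ng/mL RANKL, the cytokine that turns them into osteoclasts. The groups set beside them were the same genotype with M-CSF alone on days 5 and 3, and the control genotype Rosa26-Runx1tg/+, which carries the transgene without Cre, with RANKL on days 5 and 3, each with 3 libraries. The labels give neither an M-CSF dose for the wells lacking RANKL nor the age of the mice, and do not say whether animals or wells were pooled. Comparing the days shows which transcripts changed between the earlier and the later culture.

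Osteoclasts are giant cells that form when macrophages fuse. RANKL acts through its receptor RANK on NF-κB and AP-1 factors and on the regulator Nfatc1, which switches on the genes for fusion, acid secretion and collagen breakdown. Fused osteoclasts carry many mitochondria, a proton pump in the membrane facing bone, and rings of actin that seal the resorption pit.

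Library totals were 18975750 to 36523995 counts on day 5 and 20544941 to 24207398 counts on day 3, and library 3 of day 5 held the highest. Mitochondrial transcripts took 3.36% to 3.70% of counts on day 5 and 3.24% to 4.57% on day 3. The 3 osteoclast defining transcripts Ctsk, Acp5 and Calcr were high on both days with RANKL, at the values given below. With M-CSF alone, over both days, Ctsk had 2.13 to 4.75 CPM, Acp5 4.35 to 11.6 CPM and Calcr 0 to 0.0432 CPM (CPM are TMM-scaled read counts relative to the library total). Runx1, which checks the genotype label, had 86.3, 92.0 and 63.4 CPM in the LysM-Cre libraries on day 5, against 71.5, 66.7 and 67.5 CPM in the control genotype on the same day. The log2 difference was 0.23 (SE 0.14, adjusted p = 1, edgeR quasi-likelihood test), and on day 3 it was 0.17 (SE 0.14, adjusted p = 1). The counts at Runx1 thus did not show the over expression that the label names, and the libraries are called LysM-Cre after the allele. The libraries numbered 3 of this genotype carried 542 to 847 counts from Y-linked genes, against 0 to 1 in the libraries numbered 1 and 2 with RANKL. This is the pattern of male cells, although no label gives a sex. Each day holds 1 such library.

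Of the tested genes, 4995 differed between day 5 and day 3 at an adjusted p under 0.05, which is 33.2% of all tested. They comprised 2651 higher genes (17.6%) and 2344 lower genes (15.6%). Most changes were moderate. The median absolute log2 change of the called genes was 0.69, and 893 of the higher and 633 of the lower genes passed a change of 2-fold, while 267 and 181 passed 4-fold. Over all tested genes the median log2 change was −0.02. In 4706 of the called genes (94.2%) the 3 values of one day lay wholly above the 3 of the other, a pattern that 46.4% of all tested genes had. With library 2 of day 5 left out, 1441 genes were called lower.

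**Figure D1:**
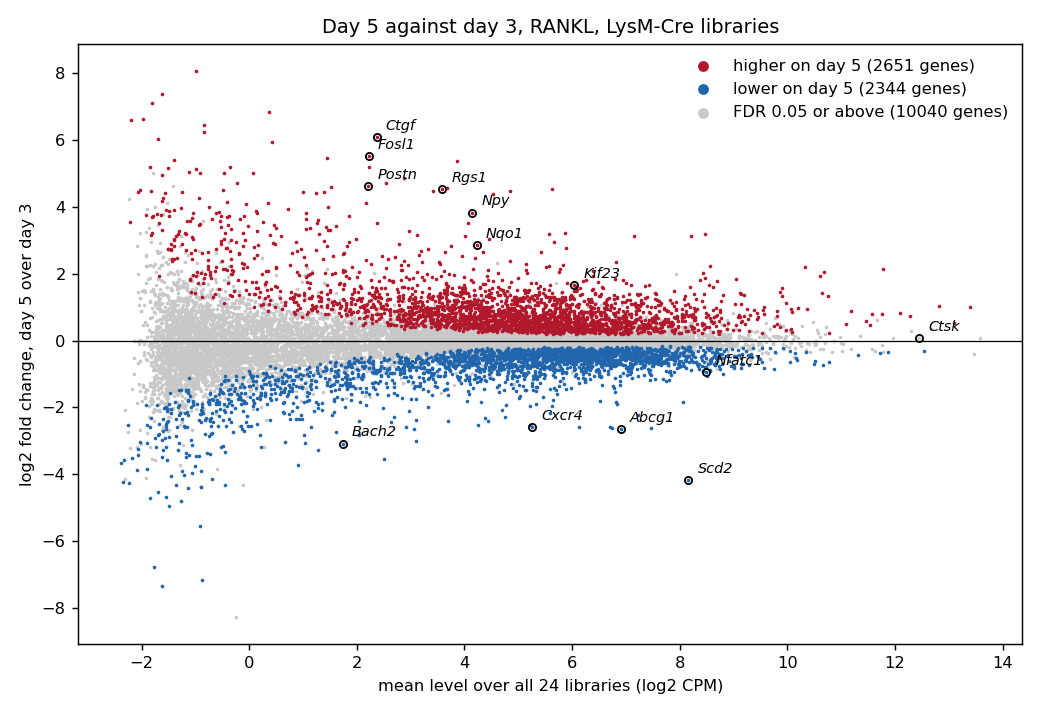
Log2 fold change of day 5 over day 3 (vertical axis) against the mean level over all 24 libraries in log2 CPM (horizontal axis), with 1 point per tested gene. The 2651 higher genes are red, the 2344 lower genes are blue and the rest are grey. Ctgf, Fosl1, Postn, Rgs1 and Npy lie far above 0, Scd2, Bach2 and Abcg1 far below it, and Ctsk on it.

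Npy, Fosl1, Bach2 and Ctgf had been put forward as markers of this comparison, so their values describe it and do not test that choice. Npy (ENSMUSG00000029819, chromosome 6, 49822710 to 49829507) encodes neuropeptide Y, a secreted peptide known from neurons and from bone. It had 37.7, 33.0 and 42.9 CPM on day 5, against 2.63, 2.61 and 2.79 CPM on day 3. Replicates of each day were close and the days did not overlap, with a log2 fold change of 3.82 (SE 0.22, adjusted p = 6.56e-10). Npy also rose with M-CSF alone, to 18.9, 21.6 and 14.3 CPM on day 5, against 7.52, 6.29 and 7.35 CPM on day 3. The rise with RANKL was larger by 2.45 log2 units (adjusted p of the difference 2.91e-06). Transcripts of the receptors stayed below the filter: Npy1r had 0 counts on day 5 and 2 on day 3, summed over 3 libraries, and Npy2r, Npy4r and Npy5r had 0 on both days. The peptidase Dpp4, which trims the peptide, had 20 counts on day 5 and 9 on day 3 and was not tested.

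Fosl1 (chromosome 19, 5447703 to 5455945) encodes Fra-1, a partner of Jun proteins in AP-1. It had 13.2, 18.0 and 12 CPM on day 5, against 0.215, 0.101 and 0.592 CPM on day 3. It was close to absent on day 3 and present in every library on day 5, with a log2 fold change of 5.5 (SE 0.63, adjusted p = 4.49e-06). Bach2 (chromosome 4, 32238804 to 32586108) encodes a transcriptional repressor that pairs with small Maf proteins. It fell to 1.24, 0.675 and 1.31 CPM on day 5, against 9.69, 7.19 and 10.9 CPM on day 3 (log2 fold change −3.08, SE 0.28, adjusted p = 3.23e-07). Among 17 AP-1 and Bach family genes, 4 rose and 5 fell, beside 17.6% of all tested genes called higher and 15.6% called lower. Without library 2 of day 5 or without library 3 of day 3, 3 fell, where 9.29% and 15.1% of all genes were called lower. Atf3, Mafk and Bach1 rose with Fosl1, by 1.67, 0.86 and 0.39 log2 units. Fosl2, a Fos family member abundant in osteoclasts, fell to 591, 473 and 617 CPM on day 5, against 1178, 1135 and 1067 CPM on day 3 (log2 fold change −1.01, SE 0.19, adjusted p = 0.000613). Jdp2, Jund and Batf2 fell with Bach2, while the founding members Fos and Jun differed by 1.06 and 0.68 log2 units and were not called.

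Ctgf (chromosome 10, 24595442 to 24598683) encodes connective tissue growth factor, a matrix protein and a target of YAP and TEAD factors. It had 34.8, 21.4 and 2.63 CPM on day 5, against 0.474, 0.0503 and 0.296 CPM on day 3. Every day 5 value lay above every day 3 value, but library 3 was far below libraries 1 and 2. The log2 fold change was 6.08 (SE 1.02, adjusted p = 0.000176), and limma voom gave an adjusted p of 0.0796. Between the days with M-CSF alone, 3 of the 4 marker genes were also called higher and 1 lower. The day change was called higher with RANKL than with M-CSF alone in 2 of the 4 and lower in 1. Ctgf was not among those called higher.

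**Figure D2:**
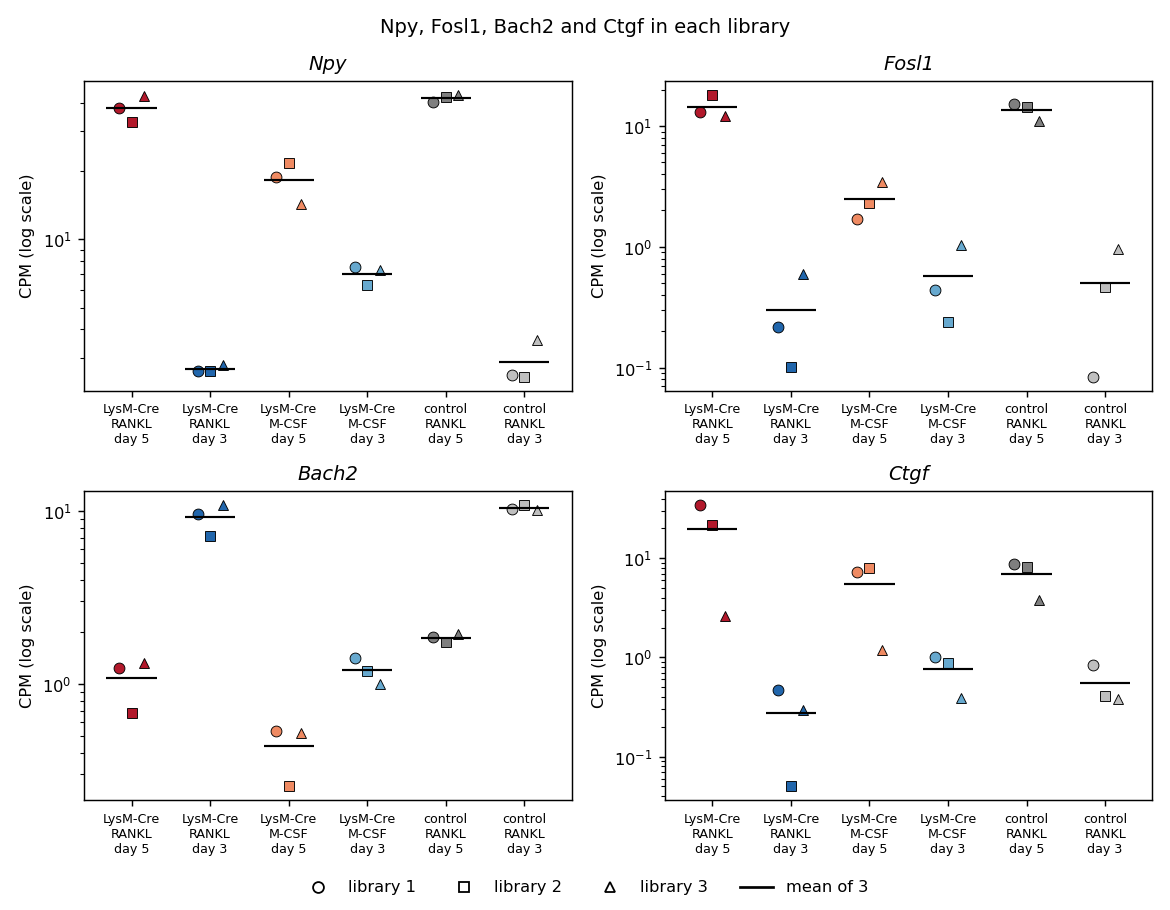
CPM on a log scale of the 4 marker genes in every library of 6 groups, with symbols for the library number and a bar at the mean of 3. Npy, Fosl1 and Bach2 separate the days with RANKL by gaps far wider than the replicates, and Ctgf shows library 3 of day 5 at 2.63 CPM below the other libraries of that day. Both genotypes show the 4 genes shifted in the same direction.

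Ctgf shared this profile with most of the largest rises. Besides Ctgf, the 12 largest rises among genes with a mean log2 CPM of at least 1 included Fbln2, Col12a1, Col5a2, Col5a1, Postn, Cyr61, Acta2 and Fn1, which encode proteins of the extracellular matrix or of contractile cells. Fn1, fibronectin, had 203, 134 and 18.8 CPM on day 5, against 7.88, 4.83 and 2.71 CPM on day 3 (log2 fold change 4.52, SE 0.79, adjusted p = 0.000267). In all 8 of these genes library 3 was the lowest of day 5. Markers of stromal cells rose too, but that list includes Col5a1, Postn and Acta2 named above, so its counts and sums hold these genes again. Of 12 tested stromal and osteoblast markers, 10 were higher on day 5 and none lower, with Tagln and Dcn not called, while 17.6% of all tested genes were higher. The summed level of the 12 was 517, 356 and 44.9 CPM on day 5, against 30.1, 14.8 and 11.7 CPM on day 3. Col1a1, the main collagen of fibroblasts and osteoblasts, had 156, 106 and 10.9 CPM on day 5, against 7.45, 3.22 and 1.61 CPM on day 3. The fibroblast markers Pdgfra, Thy1 and Lum had 13, 17 and 7 counts on day 5 and 15, 1 and 0 on day 3 over 3 libraries, and the osteoblast genes Bglap and Ibsp had 1 and 0 counts on day 5 and 2 and 0 on day 3. Stromal sums also differed with M-CSF alone (215, 227 and 30.9 CPM on day 5, against 30.6, 14.3 and 11.2 CPM on day 3), where osteoclasts do not form. The part of stromal cells in the rise of Ctgf and the matrix genes was not tested. In bulk RNA more cells of a type and more RNA per cell cannot be told apart. Without library 2 of day 3, 6 stromal markers were called. With libraries 1 and 2 of day 5 left out, fewer stromal markers were called, as were fewer genes over all tested. In that setting the log2 changes of Col5a1, Postn, Acta2 and Sparc were 1.68, 2.27, 1.79 and 1.26. With limma voom 1 stromal marker was called, where 17.1% of all tested genes were higher. Acta2, Postn, Col12a1, Col5a1, Col5a2 and Fbln2 also lost their call with limma voom (adjusted p = 0.051 to 0.171).

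**Figure D3:**
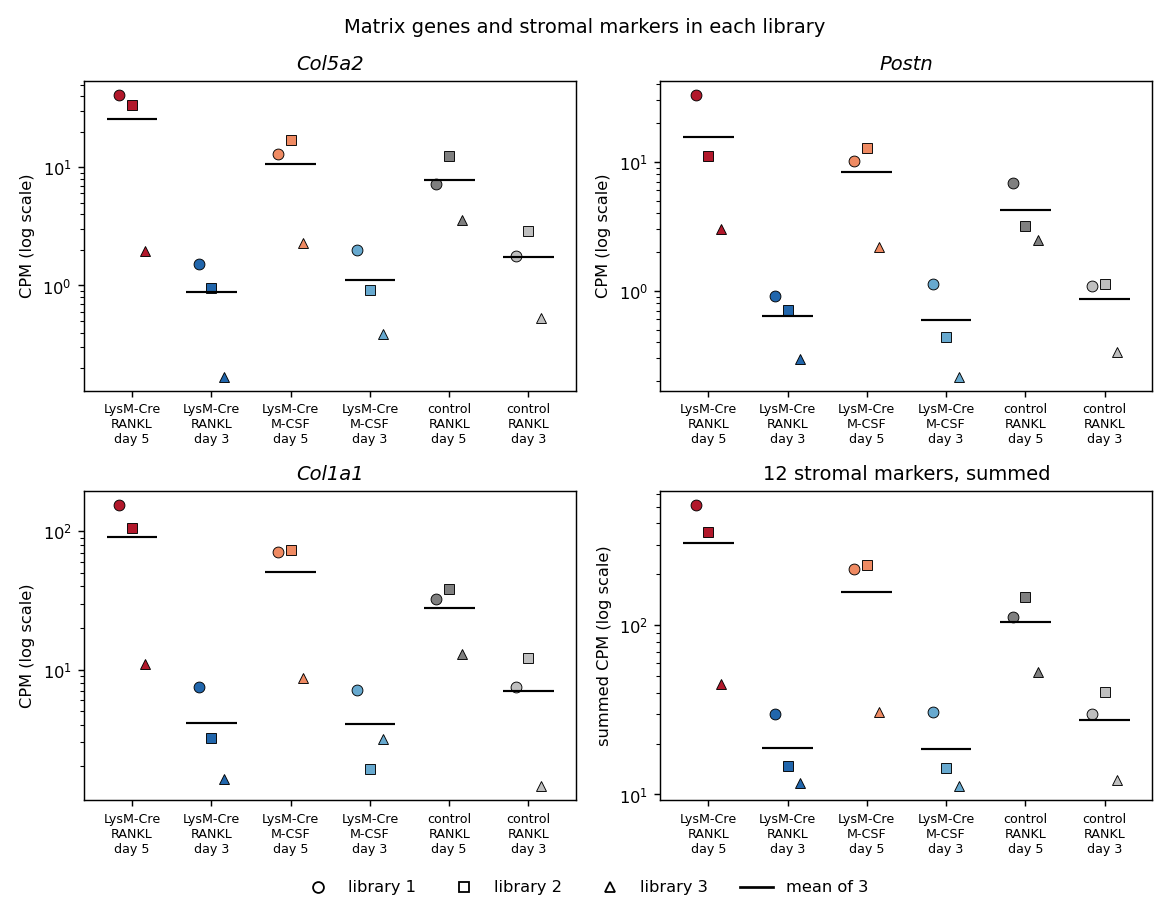
CPM on a log scale of Col5a2, Postn and Col1a1, and the summed CPM of 12 stromal markers, in every library, with a bar at the mean of 3. Libraries 1 and 2 of the LysM-Cre genotype stand above library 3 on day 5 in all 4 panels, with RANKL and with M-CSF alone, and the summed level with RANKL on day 5 runs from 44.9 to 517 CPM.

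Fosl1 and Rgs1, also among the 12 largest rises, kept their call with libraries 1 and 2 of day 5 left out (adjusted p = 0.00039 and 0.0101). Rgs1, which turns off signalling from chemokine receptors, had 20, 14.6 and 13.4 CPM on day 5, against 0.603, 0.754 and 0.719 CPM on day 3 (log2 fold change 4.52, SE 0.75, adjusted p = 0.000165). Its rise exceeded that with M-CSF alone by 3.37 log2 units (adjusted p of the difference 0.0193).

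The 12 largest falls were Scd2, Synpo2, Chac1, Bach2, Celsr1, Stat4, Adgre4, Slc6a12, Abcg1, Trp53inp1, Coq8a and Cxcr4. Scd2, a desaturase that makes monounsaturated fatty acids, fell to 34.2, 28.1 and 47.6 CPM on day 5, against 644, 499 and 826 CPM on day 3 (log2 fold change −4.16, SE 0.49, adjusted p = 5.5e-06). Abcg1, a pump that exports cholesterol, fell to 56.1, 48.2 and 54.4 CPM, against 314, 391 and 281 CPM on day 3 (−2.63, SE 0.37, adjusted p = 3.76e-05). Both also fell with M-CSF alone (log2 changes −3.44 and −2.67), and the changes with RANKL differed from these by −0.72 and 0.04 (adjusted p of the difference 0.477 and 0.98). Synpo2 encodes an actin-binding protein and Celsr1 an adhesion receptor of planar cell polarity, and both were under 1 CPM in every M-CSF library. Synpo2 fell to 1.61, 1.97 and 1.11 CPM on day 5, against 18.9, 27.3 and 8.08 CPM on day 3. Celsr1 fell to 2.16, 1.35 and 1.91 CPM, against 13.9, 10.3 and 14.6 CPM on day 3 (log2 fold change −2.83, SE 0.30, adjusted p = 1.9e-06). Cxcr4, the receptor that holds precursors in the marrow, fell to 5.82, 7.32 and 7.60 CPM, against 31.7, 69.9 and 23.0 CPM on day 3. Trp53inp1, a target of p53, fell to 34.4, 28.1 and 32.7 CPM, against 189, 275 and 120 CPM on day 3. Stat4 rests on few reads, with 3 counts on day 5 and 21 on day 3 over 3 libraries, a ratio of 0.126 with an exact 95% counting interval of 0.024 to 0.421. Its call was lost with limma voom (adjusted p = 0.0906), without library 3 of day 5 (0.104) and without library 2 of day 3 (0.118). Chac1 lost its call without library 3 of day 3 (adjusted p = 0.0539), the library that held 18.3 CPM against 4.74 and 2.01 CPM in libraries 1 and 2. Adgre4 lost its call without library 2 of day 3 (0.0797).

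Part of the osteoclast program was lower on day 5. Of 22 tested resorption genes, 10 fell and 0 rose, beside 15.6% of all tested genes called lower, with a median log2 change of −0.40, beside −0.02 over all tested genes. The genes that define the cell did not pass the test. Ctsk, the protease that degrades bone collagen, had 12938, 9020 and 13362 CPM on day 5, against 12730, 11316 and 9524 CPM on day 3, and was at 3.05, 2.30 and 2.13 CPM with M-CSF alone on day 5. Acp5, the acid phosphatase used to stain osteoclasts, had 10100, 7264 and 8567 CPM on day 5, against 9552, 8920 and 5957 CPM on day 3. Calcr, the calcitonin receptor, had 209, 151 and 143 CPM on day 5, against 187, 222 and 75.6 CPM on day 3. For each of these the days overlapped. Among the genes that fell were Src, the kinase needed for the ruffled border, the chloride channel Clcn7, the carbonic anhydrase Car2 and the sorting protein Snx10. Src had 315, 236 and 348 CPM on day 5, against 661, 593 and 591 CPM on day 3 (log2 fold change −1.04, SE 0.19, adjusted p = 0.000351). Clcn7 had 747, 550 and 857 CPM on day 5, against 1270, 1237 and 997 CPM on day 3 (−0.70, SE 0.14, adjusted p = 0.000976). The count of 10 depended on library 2 of day 5, which was the lowest of its day in Ctsk, Acp5, Src and Clcn7. Without it 2 of the 22 resorption genes were called lower, about the 9.29% of all genes tested in that setting, and without library 1 of day 3 the count was 3.

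The list counts of this paragraph stand beside 17.6% of all tested genes called higher and 15.6% called lower. Of 17 proton pump subunits and accessory proteins (the V-ATPase list), 10 fell and 1 rose, with a median of −0.40. Without library 2 of day 5 or without library 1 of day 3, 6 fell. Atp6v1b2, a subunit of the catalytic head, had 2390, 1849 and 2907 CPM on day 5, against 4104, 3642 and 3356 CPM on day 3. Atp6v0d2, the membrane subunit of osteoclasts, had 1119, 815 and 1373 CPM on day 5, against 2186, 1931 and 1737 CPM on day 3 (log2 fold change −0.82, SE 0.25, adjusted p = 0.0151). The exception that rose was Atp6v0a1, by 0.41. Of 23 genes of the actin ring and podosomes, 9 fell and 1 rose, with log2 changes of −0.83 for Rac2 and Rhou and −0.71 for Pxn. Without library 2 of day 5 the count was 6. Of 16 fusion genes, 5 rose and 4 fell. Without library 1 of day 3 the counts were 3 and 2, where 12.1% of all genes were called higher and 10.9% lower. Without library 2 of day 5, 2 fell, where 9.29% of all genes were called lower. Dcstamp, the fusion receptor, did not pass the test (log2 fold change 0.02, SE 0.21, adjusted p = 0.956). Its partner Ocstamp fell by 0.63 (SE 0.23, adjusted p = 0.044), and Adam8, a surface protease, rose to 1310, 1562 and 1136 CPM, against 300, 279 and 392 CPM on day 3.

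Some regulators of the program fell too. Of 22 tested osteoclast regulators, 9 fell and 1 rose, beside 15.6% of all tested genes called lower and 17.6% called higher. Nfatc1 fell to 445, 374 and 526 CPM on day 5, against 925, 754 and 894 CPM on day 3 (log2 fold change −0.93, SE 0.15, adjusted p = 8.95e-05), and it stayed above the 96.2, 83.9 and 72.8 CPM found with M-CSF alone on day 5. The difference in day change from M-CSF alone was −0.78 (adjusted p = 0.0136). Ppargc1b, the coactivator that drives mitochondrial growth in osteoclasts, fell by 0.95 (SE 0.13, adjusted p = 2.55e-05), and Traf6, the adaptor of RANK, fell by 0.59. The gene that rose was Tyrobp, the DAP12 adaptor, by 0.34, a call lost under RLE scaling (adjusted p = 0.0938), with DESeq2 (0.0859) and without any 1 of 5 libraries. Of 14 tested repressors of osteoclast formation, 5 rose and 2 fell, beside the same shares of all tested genes. Among them Bcl6, Id1, Lilrb4a and Rbpj rose by 1.05, 1.82, 1.31 and 0.89 log2 units, Bach2 and Cyld fell, and Irf8, the interferon regulatory factor that holds back Nfatc1, did not pass the test (0.07, SE 0.30). Without library 2 of day 5 or without library 1 of day 3, 3 repressors were called higher, where 12.1% of all genes were in either setting. Runx1 itself was higher on day 5, at 86.3, 92.0 and 63.4 CPM against 53.6, 67.4 and 52.7 CPM on day 3, but the days overlapped. Its log2 change was 0.48 (SE 0.14, adjusted p = 0.0109), with the call lost on leaving out any 1 of 3 libraries (adjusted p = 0.0523 to 0.0721). Cbfb, the DNA-binding partner of Runx proteins, rose by 0.78.

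Most genes of the respiratory chain fell. Of 24 nuclear-encoded oxidative phosphorylation genes, 23 fell and 0 rose, with a median of −0.53, and Cycs was the gene not called. Their log2 changes lay between −0.77 and −0.28. Uqcrc1 of complex III had 342, 299 and 417 CPM on day 5, against 663, 603 and 543 CPM on day 3 (log2 fold change −0.77, SE 0.11, adjusted p = 2.75e-05). Sdha of complex II had 662, 558 and 749 CPM on day 5, against 1142, 1130 and 948 CPM on day 3 (−0.71, SE 0.10, adjusted p = 3.28e-05). With M-CSF alone 0 of the 24 were called, where 7.17% of all tested genes were higher and 7.08% lower. The day change was lower with RANKL than with M-CSF alone in 14 of the 24, against 7.13% of all tested genes. Leaving out any 1 library left 18 to 23 lower. With library 3 as the lone day 5 library fewer were called lower, as were fewer genes over all tested. Transcripts encoded in the mitochondrion itself, which include copies hard to place in a genome with nuclear insertions, gave 3 lower of 12. Of all tested genes 15.6% were lower. The count was 1 lower without any 1 of 4 libraries (1 or 2 of either day) and 6 lower without the number 3 libraries of this genotype.

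Mitotic genes changed in opposite directions in the media. Of 25 mitosis genes, all 25 rose with RANKL, with a median log2 change of 1.31, and all 25 fell with M-CSF alone, with a median of −2.38. Of all tested genes, 17.6% were called higher with RANKL and 7.08% lower with M-CSF alone. The day change was higher with RANKL than with M-CSF alone in all 25, against 8.09% of all tested genes. Kif23, the motor that builds the midbody in cell division, had 91.9, 118 and 84.0 CPM on day 5, against 28.3, 29.3 and 35.9 CPM on day 3 (log2 fold change 1.65, SE 0.17, adjusted p = 9.27e-07). With M-CSF alone it had 26.7, 26.4 and 26.8 CPM on day 5, against 144, 90.6 and 114 CPM on day 3. Ube2c, which helps to degrade cyclins, had 124, 173 and 114 CPM on day 5, against 37.3, 39.5 and 60.7 CPM on day 3, and its day change exceeded that with M-CSF alone by 4.92 log2 units (adjusted p = 2.29e-09). Cenpf of the kinetochore and Prc1, which bundles the central spindle, rose by 1.48 and 1.51. Leaving out any 1 library left 24 or 25 mitosis genes higher, and with library 3 as the lone day 5 library 23 were.

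**Figure D4:**
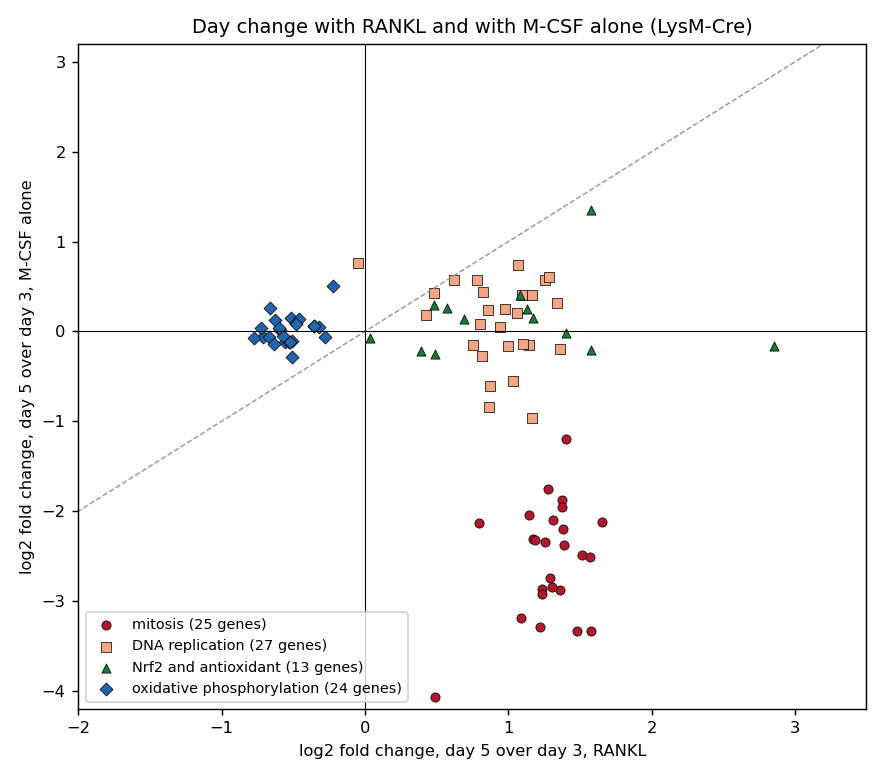
Log2 fold change of day 5 over day 3 with RANKL (horizontal axis) and with M-CSF alone (vertical axis) in LysM-Cre cells, with 1 point per tested gene of 4 lists and a dashed line of equal change. The 25 mitosis genes lie right of 0 and below 0, the 24 oxidative phosphorylation genes lie left of 0 near the horizontal axis, and most antioxidant genes lie right of 0 near that axis.

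Genes of mitosis are known to share a pair of short promoter elements, the CCAAT box and the cell cycle genes homology region. The windows shown are those of 4 mitosis genes that rose with RANKL. All 4 hold the letters of both elements, which not every window of the list does. Each window holds 250 bases before and 50 after the RefSeq start (build GRCm38.p6), 5′ to 3′ on the strand of the gene, with TTTGAA and ATTGG in capitals on either strand, where TTCAAA and CCAAT are the reverse complements. The motifs shared no base in these windows. The bases just after the start lie in a GENCODE M21 transcript of the gene on its strand in 5 of the 6 windows printed here and below, and in none of those of Kif23.

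Kif23 (chr9:61946750-61947049, minus strand): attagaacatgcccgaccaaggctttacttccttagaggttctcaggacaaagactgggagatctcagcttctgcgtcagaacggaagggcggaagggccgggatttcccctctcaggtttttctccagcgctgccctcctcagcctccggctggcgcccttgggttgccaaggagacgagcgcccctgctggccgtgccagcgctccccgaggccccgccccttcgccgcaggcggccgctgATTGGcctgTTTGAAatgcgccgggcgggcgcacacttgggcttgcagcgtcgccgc

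Prc1 (chr7:80294201-80294500, plus strand): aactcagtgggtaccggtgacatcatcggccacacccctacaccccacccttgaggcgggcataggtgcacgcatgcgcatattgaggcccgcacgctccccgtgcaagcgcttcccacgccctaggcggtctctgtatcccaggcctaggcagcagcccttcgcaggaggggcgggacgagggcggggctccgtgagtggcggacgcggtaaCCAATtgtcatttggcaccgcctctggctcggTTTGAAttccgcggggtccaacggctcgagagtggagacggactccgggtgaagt

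Ube2c (chr2:164769679-164769978, plus strand): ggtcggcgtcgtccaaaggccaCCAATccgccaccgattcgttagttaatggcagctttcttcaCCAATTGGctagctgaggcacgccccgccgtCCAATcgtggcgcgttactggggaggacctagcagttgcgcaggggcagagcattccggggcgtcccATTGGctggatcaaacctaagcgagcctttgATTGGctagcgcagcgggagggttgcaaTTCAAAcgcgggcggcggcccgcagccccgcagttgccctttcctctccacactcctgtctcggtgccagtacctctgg

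Cenpf (chr1:189688037-189688336, minus strand): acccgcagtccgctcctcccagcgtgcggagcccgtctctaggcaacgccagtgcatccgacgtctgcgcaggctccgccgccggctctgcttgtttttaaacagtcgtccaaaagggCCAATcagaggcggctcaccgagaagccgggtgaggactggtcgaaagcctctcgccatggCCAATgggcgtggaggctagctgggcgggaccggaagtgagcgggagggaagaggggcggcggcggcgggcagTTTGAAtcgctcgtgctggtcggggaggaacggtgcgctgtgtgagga

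RefSeq windows were matched for 21 of the 25 mitosis genes. TTTGAA lay in 16 of the 21 (76.2%), against 18.1% of windows of all 27025 genes, and ATTGG in 18 of the 21 (85.7%), against 37.9% of all. Among 21 matched genes of DNA replication, TTTGAA lay in 2 (9.5%) and ATTGG in 14 (66.7%). A match says that the letters are present and is not evidence of binding. These are 4 of 32 pairs of list and motif that were counted, chosen after the changes were known.

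The list counts of this paragraph with RANKL stand beside 17.6% of all tested genes called higher and 15.6% called lower. Without library 2 of day 5, library 1 of day 3 or library 2 of day 3, the shares were 12.1% to 13.1% higher and 9.29% to 11.9% lower. DNA replication genes rose with RANKL in 17 of 27 cases and fell in 0, with a median of 0.98. The count was 9 without library 2 of day 5, 9 without library 1 of day 3 and 10 without library 2 of day 3. In a fit of the 6 compared libraries alone 26 rose. With library 3 as the lone day 5 library fewer were called higher, as were fewer genes over all tested. Pcna, the clamp of the replication fork, had 282, 325 and 274 CPM on day 5, against 115, 113 and 141 CPM on day 3. Unlike the mitosis genes they did not fall as a list with M-CSF alone, where 1 rose and 3 fell and the median was 0.21. Of 10 D cyclins and cyclin-dependent kinase inhibitors, 6 rose and 2 fell, with 3 and 1 called without library 2 of day 3. Without library 2 of day 5, 1 fell. Ccnd1, the cyclin of growth factor response, had 363, 476 and 297 CPM on day 5, against 41.6, 30.6 and 59.1 CPM on day 3 (log2 fold change 3.11, SE 0.89, adjusted p = 0.0109). The inhibitors Cdkn1b and Cdkn2b fell, with log2 changes of −0.69 and −1.62. Of 15 genes of ribosome biogenesis and Myc, 13 rose and 0 fell, with a median of 0.91, and 7 rose without library 2 of day 3, and 8 without library 1 of day 3 or without library 2 of day 5. Dkc1 and Nop58 of the nucleolus rose by 1.38 and 1.35, whereas Myc differed by 1.71 with an adjusted p of 0.0752.

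Antioxidant genes rose together with RANKL. Nrf2, encoded by Nfe2l2, is the factor that switches on enzymes against oxidants, through sites in DNA called antioxidant response elements. Of 13 tested genes of this list, 12 rose and 0 fell, with a median of 1.08, beside 17.6% of all tested genes called higher and 15.6% called lower. With M-CSF alone 1 rose and 0 fell, about the 7.17% of all tested genes called higher there. Nqo1, a quinone reductase, had 29.6, 33.7 and 44.0 CPM on day 5, against 3.66, 6.39 and 4.87 CPM on day 3 (log2 fold change 2.85, SE 0.23, adjusted p = 4.01e-08). With M-CSF alone its log2 change was −0.16, and the difference was 3.01 (adjusted p = 4.62e-07). Prdx1, a peroxidase, had 1556, 1550 and 1586 CPM on day 5, against 584, 630 and 557 CPM on day 3, and replicates differed by far less than the days. Gclm, a subunit of the enzyme that starts glutathione synthesis, had 241, 257 and 262 CPM on day 5, against 100, 131 and 106 CPM on day 3. Hmox1, heme oxygenase, rose by 1.58, and by 1.35 with M-CSF alone. Leaving out any 1 library left 10 or 11 higher, and 9 were higher without number 3 of this genotype. The windows of Gclm and Prdx1 hold the core of the element, TGACNNNGC, shown in capitals on either strand.

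Gclm (chr3:122245307-122245606, plus strand): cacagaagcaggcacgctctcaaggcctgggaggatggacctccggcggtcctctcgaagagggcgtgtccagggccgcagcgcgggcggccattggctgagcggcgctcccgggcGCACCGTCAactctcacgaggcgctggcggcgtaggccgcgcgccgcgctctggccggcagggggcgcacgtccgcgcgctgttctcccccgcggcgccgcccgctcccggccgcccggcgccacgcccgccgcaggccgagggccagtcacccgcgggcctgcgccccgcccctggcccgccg

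Prdx1 (chr4:116685349-116685648, plus strand): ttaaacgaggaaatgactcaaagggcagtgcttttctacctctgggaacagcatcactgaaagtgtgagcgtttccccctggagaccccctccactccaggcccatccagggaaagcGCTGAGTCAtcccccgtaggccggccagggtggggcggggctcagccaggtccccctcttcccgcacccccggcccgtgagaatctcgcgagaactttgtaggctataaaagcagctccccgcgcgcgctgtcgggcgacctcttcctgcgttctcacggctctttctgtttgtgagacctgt

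The core lay in 5 of 11 matched genes of the list (45.5%), against 12.5% of all windows. In the other lists searched it lay in 0% (marker genes, with 2 matched) to 25.0% (stromal genes). The AP-1 site TGANTCA, which can overlap the core, lay in 4 of the 11 (36.4%), against 7.9% of all. These pairs are also among the 32 counted and were chosen after the changes were known. Here too a match is not evidence of binding.

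Some transcripts of lysosomes and macrophages rose. Of 25 lysosomal genes, 10 rose and 1 fell, beside 17.6% of all tested genes called higher, and 6 rose without library 3 of day 3. Ctsl and Ctss, cathepsins of the endosome, rose by 1.94 and 1.46. Ctsl had 1414, 1687 and 1786 CPM on day 5, against 388, 451 and 436 CPM on day 3, and its rise exceeded that with M-CSF alone by 0.92 (adjusted p of the difference 0.000631). Of 20 macrophage markers, 9 rose and 1 fell, and 6 rose without library 2 of day 5. Cd36, a scavenger receptor for oxidised lipids, had 627, 564 and 524 CPM on day 5, against 103, 154 and 121 CPM on day 3 (log2 fold change 2.18, SE 0.13, adjusted p = 6.56e-10). With M-CSF alone on day 5 it had 2764, 2507 and 2943 CPM. Cd14, Trem2 and Adgre1 rose by 1.65, 1.65 and 0.92, while Csf1r, the M-CSF receptor, was not called. The summed level of the macrophage list was 8404 to 10558 CPM on day 5 and 5685 to 8324 CPM on day 3 with RANKL, against 35039 to 44092 CPM and 25517 to 30854 CPM with M-CSF alone on the same days. The part of macrophages that had not fused in these rises was not tested.

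Of 16 tested inflammatory genes, 9 rose and 2 fell, beside 17.6% of all tested genes called higher and 15.6% called lower. Tnf, Ccl2, Ccl3, Ccl4, Ccl7, Cxcl2, Cxcl3, Ptgs2 and Socs3 rose, by 1.91 to 4.24 log2 units, and the NF-κB inhibitors Nfkbia and Tnfaip3 fell. Most of these were low: Ptgs2, the inducible cyclooxygenase, had 4.49, 7.53 and 2.31 CPM on day 5, against 0.301, 0.251 and 0.254 CPM on day 3. Socs3 had 12.4, 20.8 and 8.63 CPM on day 5, against 1.94, 2.92 and 2.92 CPM on day 3, and its difference from M-CSF alone was called (adjusted p = 6.46e-05). Without library 1 of day 5, 6 rose. Nfkbia and Tnfaip3 both lost their call without library 1 or 2 of either day, and 1 of them without library 3 of day 3. Of 17 immediate early genes, 8 rose and 0 fell, beside the same shares of all tested genes. Those that rose included Egr1, Egr2, Klf4 and Dusp1. Interferon-stimulated genes gave 4 higher of 28 (Oas1a, Oas2, Oas3 and Bst2), while 17.6% of all tested genes were higher. The count was 2 without library 1 or 3 of day 3 and 7 without library 2 of day 3.

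**Figure D5:**
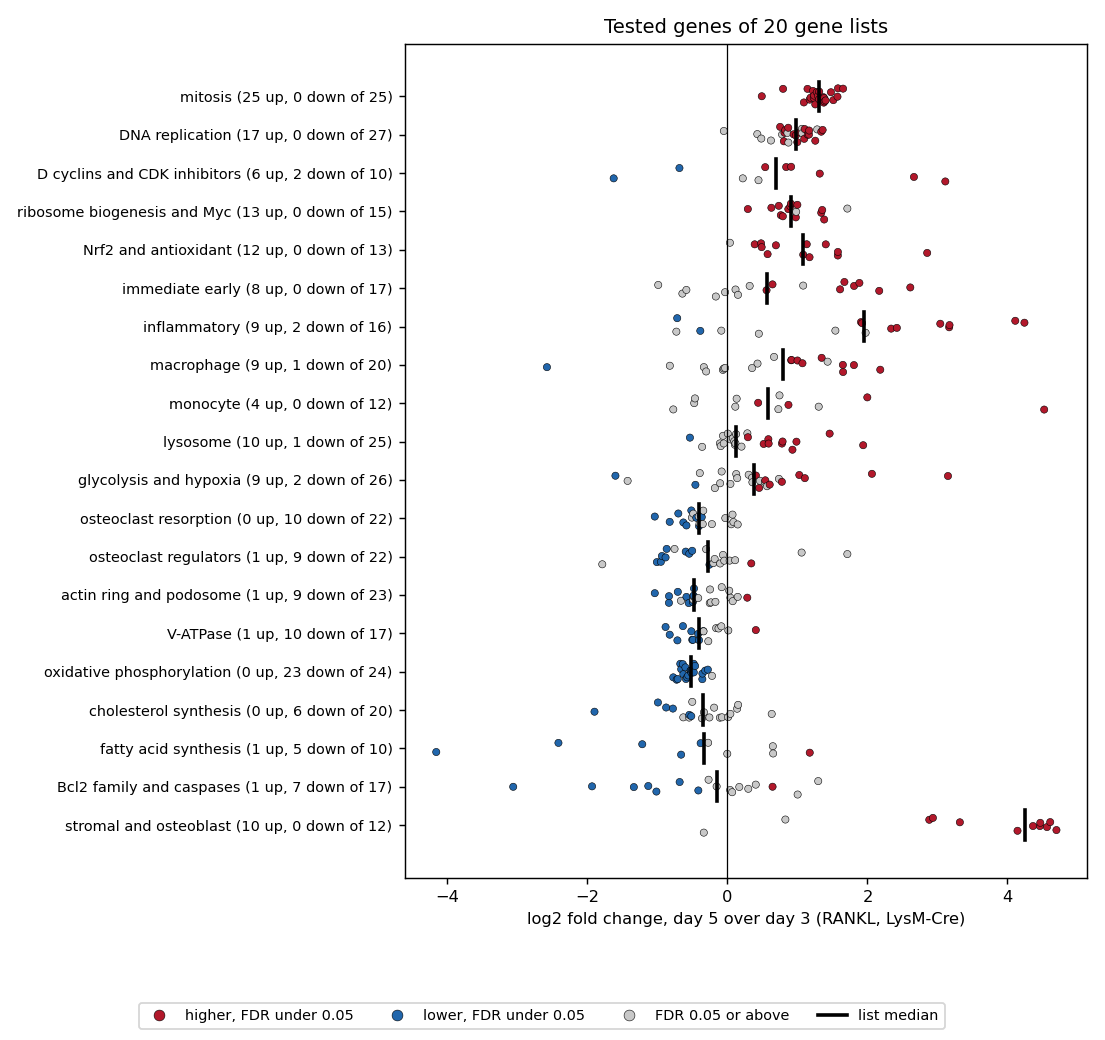
Log2 fold change of day 5 over day 3 for every tested gene of 20 lists, with 1 point per gene, red where higher, blue where lower and grey where not called, and a bar at the list median. Mitosis (25 of 25 higher) and oxidative phosphorylation (23 of 24 lower) are the most uniform of the lists drawn, and the stromal list has the highest median.

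Lipid and energy genes were called in part, and their counts stand beside 17.6% of all tested genes called higher and 15.6% called lower. Of 10 tested fatty acid synthesis genes, 5 fell and 1 rose, and 3 fell without library 1 or 2 of day 5 or library 3 of day 3. Of 20 cholesterol synthesis genes 6 fell and 0 rose, with 2 lower without library 2 of day 5, about the 9.29% of all genes in that setting, and 3 without library 1 of either day or library 3 of day 3. Of 10 genes of LXR and lipid efflux 4 fell and 2 rose. Insig1, which restrains sterol synthesis, had 39.9, 28.2 and 61.9 CPM on day 5, against 164, 157 and 166 CPM on day 3. Abca1 and Abcg1 fell, and Apoe and Lpl rose by 2.13 and 1.33. Of 26 glycolysis and hypoxia genes, 9 rose and 2 fell (1 without library 2 of day 5). The rise with the smallest p was that of the lactate exporter Slc16a3, which had 116, 144 and 145 CPM on day 5, against 28.9, 36.6 and 31.5 CPM on day 3. Of 18 genes of Atf4 and amino acid supply, 6 fell and 2 rose, while 1 fell and 5 rose without library 3 of day 3, and 3 fell without library 2 of day 5. Of 17 Bcl2 family and caspase genes, 7 fell and 1 rose, and 5 fell without library 2 of day 3. The death-promoting genes Bmf, Bcl2l11, Bbc3 and Pmaip1 had log2 changes of −1.93 to −1.01. Hrk, with a log2 change of −3.06, rests on few reads, at a mean of 0.057 CPM on day 5 and 0.495 CPM on day 3. Mcl1, which protects cells, fell by 0.41, and Bax rose by 0.65. Of 14 p53 targets, 4 rose and 3 fell.

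The counts of the remaining lists stand beside the same 17.6% higher and 15.6% lower of all tested genes. YAP and TEAD targets gave 7 higher and 4 lower of 20, and 1 higher and 4 lower with limma voom. Secreted factors of osteoclasts gave 4 higher and 1 lower of 14, NFAT and calcineurin genes 3 and 1 of 13, NF-κB genes 4 and 4 of 20, ITAM costimulation genes 2 and 2 of 16 and Runx genes and partners 2 and 1 of 9. Small counts moved with single libraries: 1 or 2 NF-κB genes were called lower without any 1 of 5 libraries, 2 higher without library 1 of day 3, and 1 ITAM gene in each direction without library 1 of either day, library 2 of day 5 or library 3 of day 3. Runx1 was the gene of the Runx list lost as given above. Among markers of other blood cells, those of monocytes gave 4 higher and 0 lower of 12 (among them Fn1, described above with the matrix genes), genes of antigen presentation and dendritic cells 3 and 6 of 17, neutrophil granule genes 7 and 3 of 14, erythroid and megakaryocyte genes 1 and 0 of 3, mast cell genes 0 and 1 of 3 and lymphoid genes 0 and 1 of 4. Without library 1 of day 3, 2 monocyte markers were called, and genes of antigen presentation gave 2 or 3 lower without any 1 of 4 libraries. The summed neutrophil level was 155, 137 and 171 CPM on day 5, against 96.0, 91.9 and 95.7 CPM on day 3, and the T and B cell genes Cd3e, Cd3g and Ms4a1 had 0 counts on both days. None of the 5 sex-linked genes was called.

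The same days were compared in the control genotype with RANKL, which shares no library with the LysM-Cre comparison. There 4027 genes (26.8%) differed, 2114 higher and 1913 lower. Of the 2651 genes higher in LysM-Cre cells, 1854 (69.9%) were higher in the control genotype too, which is 87.7% of its higher genes. Of the 2344 lower genes, 1577 (67.3%) were lower there too, which is 82.4% of its lower genes, and 1 gene was called in opposite directions. Across the 15035 genes the log2 changes had a Pearson r of 0.77 and a Spearman rho of 0.80, which are descriptions across genes and not across samples. The test of the difference in day change between the genotypes called 0 genes (0%) with edgeR, 0 with DESeq2 and 0 with limma voom, and 225 genes had an unadjusted p under 0.05 with edgeR. Npy changed by 3.87 in the control genotype, and its difference of −0.05 log2 units had a 95% interval of −0.66 to 0.56. The interval was −1.13 to 2.60 for Fosl1, −1.38 to 0.21 for Bach2 and −0.54 to 5.45 for Ctgf, so of these 4 the interval lay within 2-fold for Npy only. Stromal markers gave 2 higher and 0 lower of 12 in the control genotype, beside 14.1% of all tested genes called higher there and 12.7% called lower. Their sums were 112, 148 and 53 CPM on day 5, against 30.0, 40.6 and 12.1 CPM on day 3. In the same comparison mitosis genes gave 25 higher of 25, oxidative phosphorylation genes 22 lower of 24 and antioxidant genes 11 higher of 13. None of these 3 lists had a call in the other direction. The difference in day change between the genotypes was called in 0 genes of all 4 lists.

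With M-CSF alone, 2143 genes (14.3%) differed between the days. Of the 2651 genes higher with RANKL, 405 (15.3%) were higher with M-CSF alone and 270 were lower there, and of the 2344 lower genes 296 (12.6%) were lower and 103 higher. The log2 changes had a Pearson r of 0.30 across genes. The day change differed between the media in 2288 genes (15.2%), higher with RANKL in 1216 and lower in 1072 (679 without library 2 of day 5). The 6 with the largest positive difference were Sapcd2, Ube2c, Pif1, Cenpf, Aspm and Pimreg. The 6 with the largest negative difference were Lpin3, Slc6a17, Atf7ip2, Sema7a, Cdkn2b and Ltbp1. Of these, Cdkn2b, an inhibitor of cyclin D kinases, had 4.17, 4.83 and 8.77 CPM on day 5 with RANKL, against 18.2, 18.2 and 19.1 CPM on day 3. With M-CSF alone it had 4.98, 10.2 and 13.2 CPM on day 5, against 0.805, 1.15 and 3.72 CPM on day 3, and the day change had opposite signs in the media.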

How the data were processed

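RNA-seq gene counts were deposited by the authors as 1 table of whole-number counts for 54532 genes in 24 libraries, and STAR, DESeq2 and the build GRCm39 are named in the submitters' processing notes, without versions or roles. The positions in the table equal those of GENCODE M21, which is built on GRCm38, for 98.3% of the 54495 identifiers found there, so coordinates are given on GRCm38. No source states whether reads were counted by strand, so overlapping and antisense genes are uncertain, as are mitochondrial genes with nuclear copies.

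All 24 libraries were fitted together in 8 groups of 3 with edgeR 4.0.16 in R 4.3.3 (filterByExpr, TMM factors, robust quasi-likelihood test, Benjamini-Hochberg adjustment over the 15035 genes kept, threshold 0.05). Unless another tool is named, each adjusted p is from this test, and SE is the standard error of the log2 fold change. CPM values are edgeR's normalized read counts, scaled by TMM factors. limma 3.58.1 (voom), DESeq2 1.42.0, other scalings, filters, sample sets and leaving out each library were alternatives. The analysis scripts were tested on simulated counts.

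The text names the 12 genes with the highest and the 12 with the lowest log2 fold change among called genes that had a mean log2 CPM of at least 1, values that did not overlap and a symbol of a described gene, the marker genes, Runx1 and its partner, up to 4 members of each list by smallest p, and 6 genes in each direction for each difference between groups. Some genes that this rule selects are not reported here. Other genes named were chosen after their values were seen. The members and the 42 gene lists were chosen with earlier results of these data known. Promoter windows came from RefSeq (GRCm38.p6), with the first window of a gene used and both strands searched.

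The labels do not say that the 3 libraries of a group came from separate mice, so p-values measure the spread between these libraries. Replicate pairs differed by more than sampling noise (chi-square per degree of freedom 3.37 to 97.2 over genes with at least 20 counts), and no pair was merged.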

Additional observations from a re-analysis of the deposited data

Results flagged for a closer look

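The 12 genes named by the rule for the difference in day change between RANKL and M-CSF alone all passed the test of that difference (edgeR quasi-likelihood interaction, Benjamini-Hochberg adjustment). The day change with RANKL was higher by 5.35 log2 units for Sapcd2, 4.92 for Ube2c, 4.87 for Pif1, 4.82 for Cenpf, 4.74 for Aspm and 4.61 for Pimreg. All 6 rose between the days with RANKL and fell with M-CSF alone. Pimreg had 27.4, 31.0 and 24.3 CPM on day 5 and 8.31, 9.96 and 7.45 CPM on day 3 with RANKL, against 4.45, 5.54 and 6.05 CPM on day 5 and 41.3, 34.0 and 47.1 CPM on day 3 with M-CSF alone.

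The difference was −6.02 log2 units for Lpin3, −4.44 for Slc6a17, −4.28 for Atf7ip2, −4.03 for Sema7a, −3.96 for Cdkn2b and −3.92 for Ltbp1. Lpin3 was at 0 in all 3 libraries of M-CSF day 3, so its fitted difference depends on the prior count. Sema7a had 68.6, 46.3 and 60.7 CPM on day 5 and 74.5, 60.5 and 61.6 CPM on day 3 with RANKL, where it was not called, against 1.98, 1.32 and 0.520 CPM on day 5 and 0, 0 and 0.259 CPM on day 3 with M-CSF alone.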

How the results depend on the processing

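Of the 159 genes selected by the naming rule and called in the day comparison, none changed the sign of its log2 fold change in any setting run. Genes that were not called, such as Ctsk and Dcstamp, and genes outside that rule were not checked. The balance of higher and lower genes did turn in some settings. Of the values for named genes, 2686 stayed on their side of the threshold and 172 lost their call. Leaving out 1 library at a time gave 1871 to 2576 higher and 1441 to 2337 lower genes for the day comparison, with the lowest lower count without library 2 of day 5. For the difference from M-CSF alone it gave 883 to 1384 higher and 679 to 1206 lower genes. That difference had 649 lower genes with no filter on low counts and 686 in a fit of the 12 LysM-Cre libraries alone. In a setting chosen after seeing the data, library 3 was the lone day 5 library, assumed to vary like the other groups: 873 genes were higher and 369 lower on day 5, and 628 and 294 for the difference from M-CSF alone. The difference from the control genotype gave 0 genes in every setting run. The replicate numbers were not taken as pairs, since no label ties a number to an animal. In all 4 LysM-Cre groups, though, number 3 alone carried more than 1 Y-linked count (542 to 847). With RANKL each day 5 library correlated best with the day 3 library of its own number, by 0.268, 0.074 and 0.219 in deviations from group means. Seen from day 3, library 2 correlated best with day 5 library 1 (0.129). Among the day 5 libraries with M-CSF alone, only number 3 correlated best with its own number (0.462). The main test thus leaves out a possible pairing. With the number as a replicate block the day comparison gave 2878 higher and 2486 lower genes, and the difference from M-CSF alone 1327 and 1207. Without the number 3 libraries of the LysM-Cre genotype there were 2240 higher and 2768 lower genes, and 832 and 1209 for the difference from M-CSF alone. Scaling turned the balance: RLE factors gave 2374 higher and 2691 lower, upper quartile factors 2340 and 2774, and DESeq2 2528 and 2947. For the difference from M-CSF alone RLE factors gave 1126 and 1219, upper quartile factors 1096 and 1347, and DESeq2 1309 and 1454. Among the lists, Atf4 and amino acid genes gave 2 higher and 6 lower as reported, and 5 and 2 without the number 3 libraries. YAP and TEAD targets gave 1 higher and 4 lower with limma voom. AP-1 and Bach genes, with 4 higher and 5 lower, gave 6 and 4 in a fit of the 6 compared libraries. With no filter on low counts there were 6 lower resorption genes, 3 lower cholesterol genes, 3 lower Atf4 genes, 3 lower AP-1 genes, 1 lower mitochondrially encoded gene and 3 higher repressors. Without the number 3 libraries 6 lysosomal and 2 interferon-stimulated genes were higher. DESeq2 gave 7 lower NF-κB genes, and the fit of 6 libraries 2 higher monocyte markers.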

Other observations

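Of 871 tested genes with a factor family in the deposited table, 128 were higher on day 5 (14.7%) and 158 lower (18.1%), beside 17.6% and 15.6% of all tested genes, and their median log2 change was −0.05. Of 10 E2F genes, which act on replication and mitosis genes, 8 were higher and 1 lower, with a median of 0.90. Of 14 ARID genes, which act in chromatin remodelling, 0 were higher and 7 lower, and of 13 nuclear receptors of the thyroid hormone receptor type 1 was higher and 5 lower.

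The factors named here were chosen after their values were seen. Pparg, the receptor that governs lipid storage and uptake, had 15.4, 14.6 and 16.6 CPM on day 5, against 3.01, 3.42 and 2.71 CPM on day 3, and its rise exceeded that with M-CSF alone by 1.71 log2 units (adjusted p of the difference 0.000241, edgeR). Egr2 and Klf4 rose by 2.17 and 1.88. Dbp, an output gene of the circadian clock, had 5.5, 6.12 and 7.37 CPM on day 5, against 20, 47.7 and 12.8 CPM on day 3, and Mxd4, a Max partner, and Rora, a clock receptor, had log2 changes of −1.80 and −1.50. For these 3 falling genes library 2 of day 3 was the highest of its day. The time of day of the harvests is not given, and its part in these values was not tested.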
